A study of Mus musculus with 12 samples.

Results

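The contractile genes of smooth muscle were examined in whole back skin of mice after MXD or N-CE was applied. They are Acta2, Actg2, Myh11, Mylk, Tagln, Cnn1, Lmod1, Smtn, Synpo2 and Des, and their 20 probes were those of 41174 on the array whose gene name in the array files was one of these 10, of 27373 gene names in all. The mice were male C57BL/6J, 8 weeks old when purchased, and received 200 µL daily on the shaved back of 3% MXD, of 10% N-CE or of VC. MXD is minoxidil, N-CE is an extract of Notocactus ottonis cells, and VC is the propylene glycol, ethanol and water vehicle control. Skin was taken after 1, 2 and 3 weeks (1W, 2W, 3W), when the RNA of 6 mice formed 1 pool for each group, and each MXD or N-CE pool shared 2 arrays, once in Cy5 and once in Cy3, with VC of the same week. This gave 6 comparisons on 12 arrays with no biological replicate, since a pool averages its mice. MXD and N-CE of a week were compared with the same VC pool, and the 4 arrays of a week shared a slide, so week and slide cannot be told apart.

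Smooth muscle contracts when myosin light chain kinase phosphorylates the light chains of smooth muscle myosin, which then pulls on filaments of smooth muscle actin. Calponin, transgelin, leiomodin and smoothelin bind or build the actin filaments, and desmin links the contractile units to the rest of the cell. In skin these genes are known from the walls of blood vessels, from the arrector pili muscles that erect the hairs and from the dermal sheath around the follicle. Many of them are switched on by serum response factor with myocardin at CArG boxes near their start.

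Values are log2 folds of the treated pool over VC, and every pair is given with the treated RNA in Cy5 first and in Cy3 second. Errors are the SD over these 2 arrays and describe the measurement, not the mice. Where a gene has several probes, the brightest one stands for it unless another is named. A gene was measured when it was well above background in MXD or N-CE, or in VC, on both arrays. It was called up- or down-regulated when both arrays of the dye swap gave one direction, each with a P of the scanning software under 0.01, and the mean fold was above 1.5 or below 0.75. This P describes spots, so a call says nothing about the spread between mice. All 10 genes were measured in all 6 comparisons, with both groups above background on 17 of the 20 probes throughout. Probes A_52_P644232 of Acta2 and A_51_P272407 of Mylk were measured in no comparison and enter only the limma fits given below. Of 8 genes that mark skin (Krt5, Krt14, Krt10, Krt1, Lor, Flg, Col1a1 and Col3a1), 8 were well above background in both channels of every array on which their spots carried no outlier mark. The 2 arrays of a dye swap correlated across bright probes with r between 0.26 and 0.71 in 5 comparisons, but with -0.17 in N-CE at 2W. The number of arrays limits the precision.

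The RefSeq promoter table holds 7 of the 10 genes, and the 250 bases before the start of 3 of them are shown, of Acta2 and Lmod1 because they hold letters close to a CArG box and of Des because it was down-regulated at 2 of the 3 weeks of MXD. All are on GRCm38.p6 and read 5′ to 3′ along the gene, and capitals mark matches to the CArG box with 1 mismatch. Acta2 is on the minus strand at chr19:34255374-34255623, Lmod1 on the plus strand at chr1:135324563-135324812 and Des on the plus strand at chr1:75360042-75360291.
Acta2: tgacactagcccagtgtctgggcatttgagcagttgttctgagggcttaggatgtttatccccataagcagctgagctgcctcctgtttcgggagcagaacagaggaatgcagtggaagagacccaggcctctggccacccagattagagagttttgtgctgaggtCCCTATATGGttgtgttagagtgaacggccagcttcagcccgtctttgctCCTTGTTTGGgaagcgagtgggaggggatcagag
Lmod1: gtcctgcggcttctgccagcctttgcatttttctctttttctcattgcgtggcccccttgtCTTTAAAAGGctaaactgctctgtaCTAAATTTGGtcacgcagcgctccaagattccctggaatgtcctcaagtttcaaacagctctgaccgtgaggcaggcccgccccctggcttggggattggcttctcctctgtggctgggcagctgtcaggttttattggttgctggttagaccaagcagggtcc
Des: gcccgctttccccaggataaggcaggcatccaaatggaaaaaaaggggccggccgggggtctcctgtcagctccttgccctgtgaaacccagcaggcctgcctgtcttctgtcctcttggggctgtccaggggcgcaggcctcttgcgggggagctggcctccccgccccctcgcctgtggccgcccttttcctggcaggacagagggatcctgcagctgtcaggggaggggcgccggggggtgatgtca
A CArG box without mismatch was found in these windows for 0 of the 7 genes, and in 482 of 32851 promoters of the table (1.47%), with both strands searched. With up to 1 mismatch allowed, 2 of the 7 genes held one, against 18.6% of all promoters. In Acta2 these matches lay at -84 to -75 and at -34 to -25 from the start, and in Lmod1 at -189 to -180 and at -164 to -155. Such matches are a description of the letters in a short window.

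After 2W of MXD, 5 of the 10 contractile genes were down-regulated and 0 were up-regulated. The 5 were Des, Synpo2, Lmod1, Myh11 and Cnn1, with folds between 0.363 and 0.612. Over all 17130 genes measured in this comparison, 11% were called down-regulated and 6.8% up-regulated. The median log2 fold of the 10 genes was -0.62 ± 0.04, beside 0.02 over all genes measured. On both arrays the 5 called genes lay below each of the other 5.

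Among the actins, Actg2, the gamma actin of visceral smooth muscle, had log2 folds of 0.66 and 0.01 in MXD at 2W. Its arrays differed more than its mean of 0.33 ± 0.46. Acta2, the alpha actin of vascular smooth muscle, had 0.39 and -0.03 on its brightest probe, A_52_P420504, a mean of 0.18 ± 0.30. Neither actin was called on these probes.

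The probes of Acta2 did not give one value. Probe A_51_P450957 lies at base 335 of the transcript, spans 34322995 to 34326249 on chromosome 19 of mm9 (minus strand) and so crosses at least 1 exon junction. The brightest probe, A_52_P420504, lies at base 1278 (34316060 to 34316119) and is printed 10 times. A_51_P450957 is shown because it was called while the brightest probe was not, in lower case, 5′ to 3′, with no part singled out.
Acta2 A_51_P450957: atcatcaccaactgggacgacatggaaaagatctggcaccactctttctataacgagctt
In MXD at 1W A_51_P450957 gave -0.54 and -0.73, and it was down-regulated with a mean of -0.64 ± 0.13. At 2W it gave -0.61 and -1.15, again down-regulated, with a mean of -0.88 ± 0.38. At 3W it gave -0.22 and -0.28 and was not called. The brightest probe had means of -0.05 ± 0.01, 0.18 ± 0.30 and 0.20 ± 0.09 at the same weeks. Its 10 copies on an array differed by SDs of only 0.01 to 0.07, so its difference between dyes at 2W exceeds the spread between copies. The remaining measured probes, A_52_P210078 at base 1641 and A_52_P239556 at base 2143, had means of -0.65 ± 0.28 and -0.85 ± 0.44 at 2W and were not called. On A_52_P239556 the MXD channel was well above background on only 1 of the 2 arrays of that week. In all, 3 of the 4 measured Acta2 probes lay below 0 on both arrays in MXD at 2W, and the brightest one did not. Which of them follows the Acta2 transcript was not tested.

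**Figure D1:**
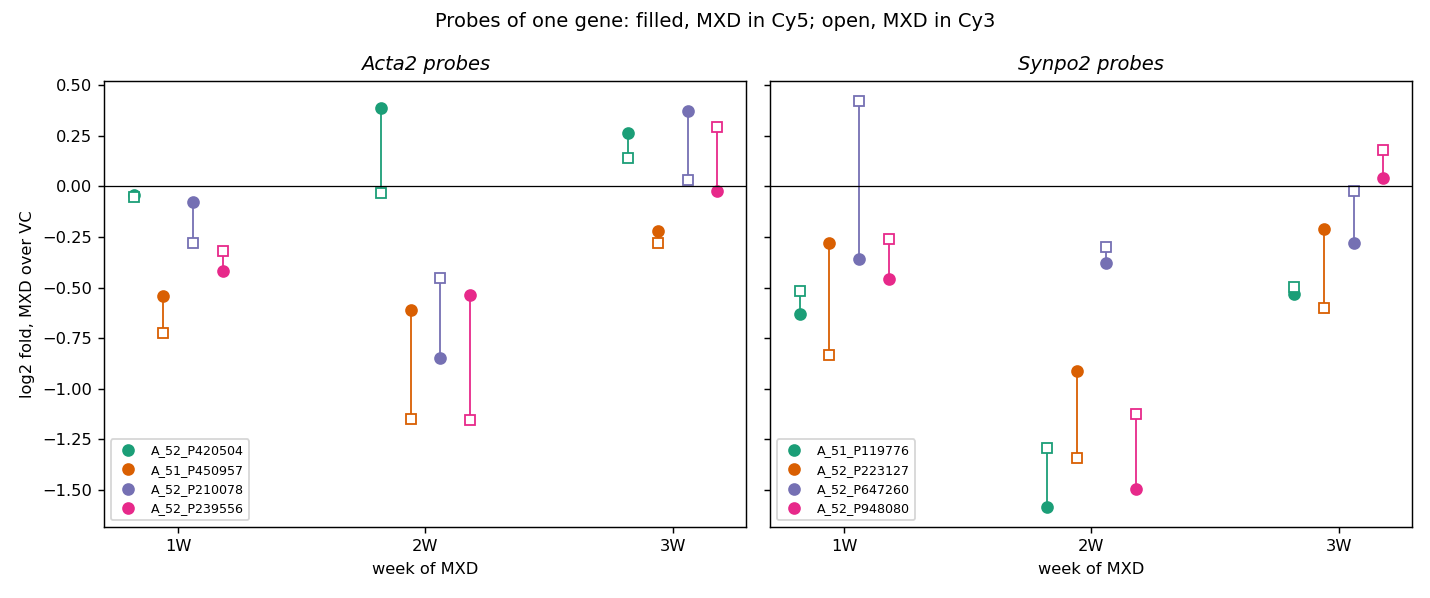
Log2 fold of MXD over VC (vertical axis) at 1W, 2W and 3W for the 4 measured probes of Acta2 and the 4 of Synpo2. Filled points are arrays with MXD in Cy5, open squares with MXD in Cy3, and a line joins the dye swap. At 2W the Acta2 probe A_52_P420504 lies at 0.39 and -0.03 while the other 3 lie below 0, and 3 of the 4 Synpo2 probes lie at -0.91 or below.

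Myh11, the heavy chain of smooth muscle myosin, is represented by 1 probe (16:14195223 to 14198147 of mm9). Its log2 folds in MXD at 2W were -0.81 and -0.67, a mean of -0.74 ± 0.09, and it was down-regulated. At 1W it gave -0.32 and -0.24, and at 3W 0.01 and 0.05. The level of Myh11 in the MXD pool at 2W was 8.67 to 8.91 on the log2 scale of signal intensity, below the 9.17 to 9.55 of the 4 VC channels of that week.

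Mylk, the myosin light chain kinase, gave -0.48 and -0.58 on its brightest probe in MXD at 2W, a mean of -0.53 ± 0.07. Its other measured probe, A_52_P145912, gave -0.64 and -0.46. All 4 values lay below 0, but the larger P of the 2 arrays was 0.0208 on the first probe and 0.0259 on the second, so Mylk was not called. At 3W the brightest probe gave 0.15 and 0.19.

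Of the genes for actin-binding proteins, Synpo2, which encodes synaptopodin 2 and is expressed in both smooth and striated muscle, gave -1.58 and -1.29 in MXD at 2W, a mean of -1.44 ± 0.21. It was down-regulated on 3 of its 4 probes, with -1.13 ± 0.30 on A_52_P223127 and -1.31 ± 0.26 on A_52_P948080. The last one, A_52_P647260, had a mean of -0.34 ± 0.05. Lmod1, leiomodin 1, which nucleates actin filaments in smooth muscle, gave -0.96 and -1.40, a mean of -1.18 ± 0.31. Cnn1, the basic calponin that binds actin in differentiated smooth muscle, gave -0.66 and -0.76, a mean of -0.71 ± 0.07.

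Tagln and Smtn lay on the other side of 0 in MXD at 2W. Tagln, transgelin or SM22 alpha, gave 0.29 and 0.41, and its second probe 0.40 and 0.00. Smtn, smoothelin, gave 0.88 and 0.23, with a mean of 0.55 ± 0.46 that was smaller than the difference between its arrays. Neither was called. Tagln was above 0 on 6 of 6 MXD arrays, between 0.12 and 0.52. In N-CE it was above 0 on 5 of 6 arrays, with values from -0.36 to 0.58.

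Des, the intermediate filament desmin of smooth, skeletal and heart muscle, gave -1.24 and -1.69 in MXD at 2W, a mean of -1.46 ± 0.32. Its probe is printed 10 times, and its unmarked copies on the 2 arrays ranged from -1.31 to -1.19 and from -1.72 to -1.66. The level of Des in the MXD pool was 9.41 to 9.60 on the log2 scale of signal intensity, against 10.8 to 11.7 in the VC channels.

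**Figure D2:**
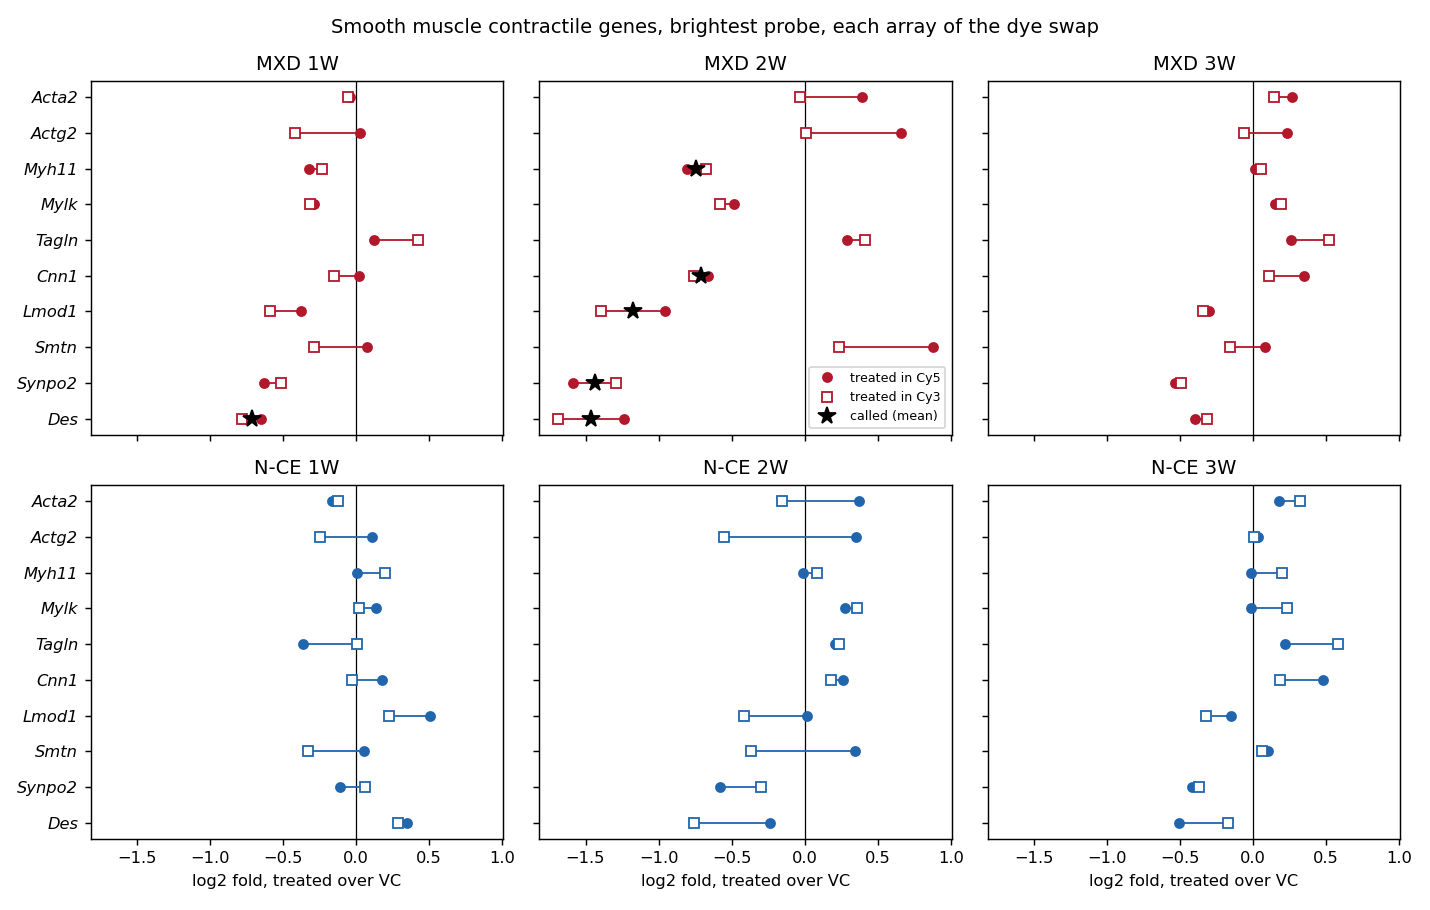
Log2 fold of the treated pool over VC (horizontal axis) for each of the 10 genes in the 6 comparisons. Filled points are arrays with the treated RNA in Cy5, open squares with it in Cy3, and stars mark the mean of called genes. There are 5 stars in MXD at 2W, 1 in MXD at 1W and 0 in the other 4 panels.

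In MXD at 1W, 1 of the 10 genes was down-regulated and 0 were up-regulated. It was Des, with -0.65 and -0.78 and a mean of -0.71 ± 0.09. Over all 17261 genes measured, 1.36% were down-regulated and 1.34% up-regulated. The median of the 10 genes was -0.24 ± 0.10, beside -0.01 over all genes. Synpo2 gave -0.63 and -0.52, and Lmod1 -0.38 and -0.59, which did not pass the call on P.

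In MXD at 3W, 0 of the 10 genes were called in either direction, where 0.311% of all genes measured were up-regulated and 0.305% down-regulated. The median was 0.06 ± 0.09. Des gave -0.40 and -0.31, Lmod1 -0.30 and -0.35 and Synpo2 -0.53 and -0.50. On the brightest probe of each, these 3 genes were below 0 on 6 of 6 MXD arrays over the 3 weeks. The other probes of Synpo2 did not all share this. A_52_P223127 was below 0 on every MXD array, but A_52_P948080 gave 0.04 and 0.18 at 3W. A_52_P647260 gave -0.36 and 0.42 at 1W. Cnn1 gave 0.35 and 0.11 at 3W.

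Across the 10 genes the mean folds of MXD correlated with r = 0.83 between 1W and 2W, 0.73 between 2W and 3W, and 0.89 between 1W and 3W. These comparisons have different pools on both sides, but genes are not independent replicates. N-CE was not entered in these correlations, so they do not show a pattern particular to MXD. At 3W the mean folds of MXD and N-CE, which share VC, differed by only -0.12 to 0.06 over the 10 genes.

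In N-CE, 0 of the 10 genes were called at any of the 3 weeks. Of all genes measured in N-CE, 0.582% were up- and 2.98% down-regulated in the first week, while 2W had 0.128% up and 0.0814% down and 3W 0.241% up and 0.241% down. With backgrounds of this size a count of 0 of 10 is no result about these genes. The median of the 10 genes was 0.02 ± 0.05 in the 1W skin. It was 0.01 ± 0.33 after 2W and 0.09 ± 0.08 after 3W.

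The genes that fell most in MXD had these values in N-CE. For Des the 1W arrays gave 0.35 and 0.29, the 2W arrays -0.24 and -0.76 and the 3W arrays -0.51 and -0.17. Synpo2 gave -0.11 and 0.06, then -0.58 and -0.30, then -0.42 and -0.37 on its brightest probe. Its probes A_52_P223127 and A_52_P647260 were also below 0 on both arrays at 2W and 3W. At 1W they gave 0.46 and 0.09, and 0.50 and 1.29. Probe A_52_P948080 of Synpo2 had means of 0.15 ± 0.32 at 2W and 0.004 ± 0.12 at 3W. Des was thus above VC on both arrays at 1W and below it on both at 2W and 3W, with none of these values called. Myh11 stayed between -0.02 and 0.20 on the 6 N-CE arrays. Lmod1 gave 0.51 and 0.23 at 1W, followed by 0.02 and -0.42 at 2W and by -0.15 and -0.32 at 3W. The 2W arrays of N-CE had opposite signs for 5 of the 10 genes, and their medians were 0.23 with N-CE in Cy5 and -0.23 with N-CE in Cy3, so values of that week have a large error.

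MXD and N-CE were next set against each other within each week, where they share the VC pool. The difference of the mean log2 folds, MXD minus N-CE, was below 0 for 7 of the 10 genes in the first week, 6 in the next and 8 in the last. It had a median over the 10 genes of -0.26 for the 1W skin, -0.81 for 2W and -0.05 for 3W. At 3W all differences lay between -0.12 and 0.06, so the count of 8 rests on values close to 0. The share of all genes below 0 was not counted. At 2W it was -0.999 ± 0.29 for Synpo2, -0.98 ± 0.44 for Lmod1, -0.97 ± 0.49 for Des, -0.93 ± 0.09 for Cnn1, -0.85 ± 0.09 for Mylk and -0.78 ± 0.12 for Myh11, with SDs combined from both dye swaps. The other 4 genes were higher in MXD, Smtn by 0.56 ± 0.68, Actg2 by 0.43 ± 0.79, Tagln by 0.13 ± 0.09 and Acta2 by 0.07 ± 0.48. The doses differed, 3% MXD and 10% N-CE, and each is 1 pool a week.

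With the weekly folds as 3 values per treatment, limma's moderated test called 0 of 40820 probes (0%) at an adjusted p under 0.05 for MXD, 0 (0%) for N-CE and 0 (0%) for MXD minus N-CE. At an unadjusted p under 0.05 the same fits gave 4220, 1013 and 2021 probes, of which 7, 0 and 0 were among the 20 probes of the contractile genes. The 7 were those of Des, Lmod1, the Synpo2 probes A_51_P119776 and A_52_P223127 and the Acta2 probe A_51_P450957, all lower in MXD, and both Tagln probes, which were higher. The lowest limma adjusted p among the 20 probes was 0.471 for MXD, 1 for N-CE and 0.75 for the difference. Weeks stand in for replicates here, so the fit asks whether a probe moved alike at all weeks, and the calls per week do not enter it.

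Levels in the pools are shown as log2 signal intensity of single channels, which compares arrays and not dyes within an array. In VC 8 of the 10 genes were lower at 2W than at 1W and 9 were lower at 3W, with median differences of -0.48 and -0.72. The same differences over all genes were not computed, so whether the fall is particular to these genes was not tested. From 1W to 3W the difference in VC was -1.31 for Cnn1, -1.23 for Myh11 and 0.64 for Smtn. The VC channels of MXD and N-CE arrays of a week hold the same RNA, and over the 10 genes they differed by -0.20 to 0.04 (1W), -0.48 to 0.35 (2W) and -0.42 to 0.86 (3W). The level of VC at a week and the slide of that week cannot be told apart.

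**Figure D3:**
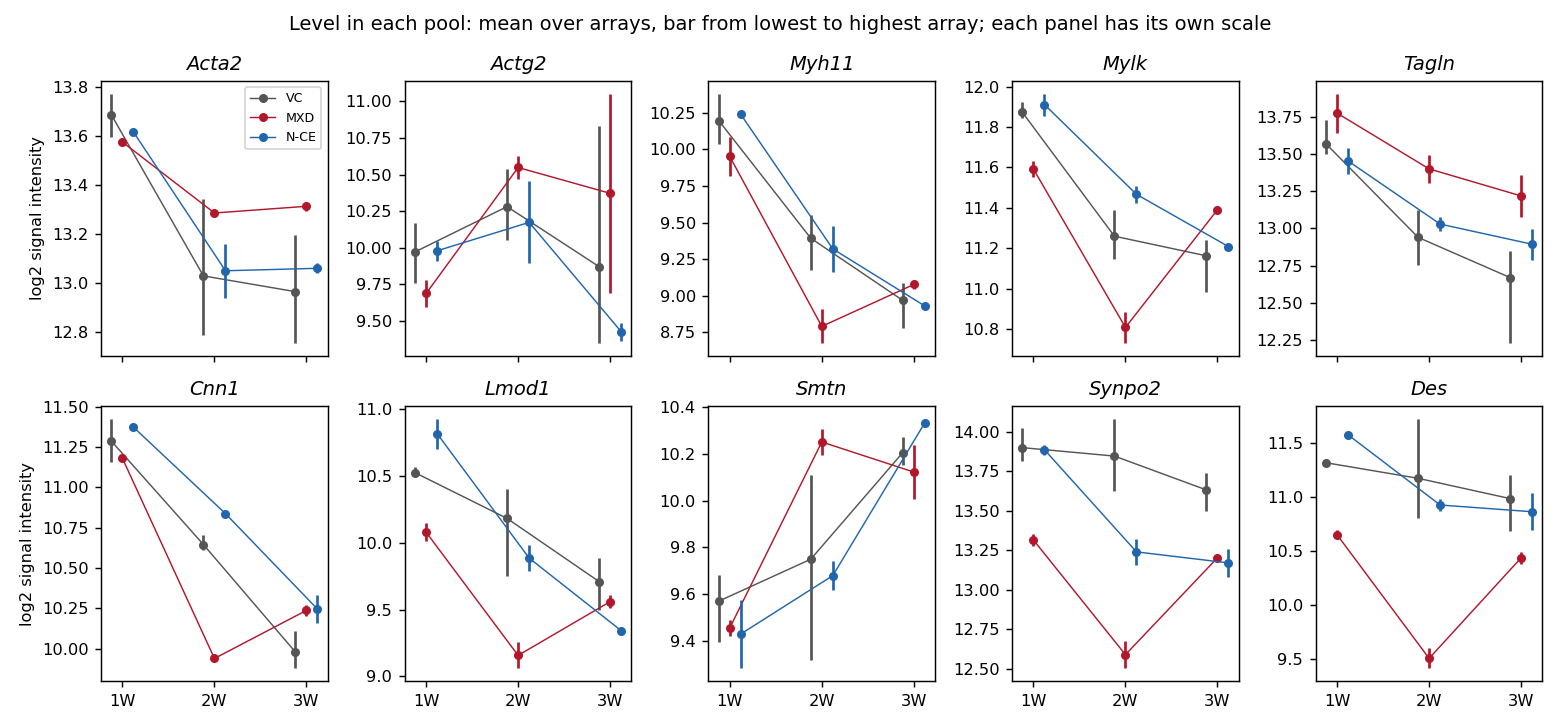
Log2 signal intensity (vertical axis, a scale of its own in each panel) of the 10 genes in the VC, MXD and N-CE pools at 1W, 2W and 3W. Points are means over arrays, 4 for VC and 2 for each treatment, bars run from the lowest to the highest array, and lines join the weeks. Des, Lmod1, Synpo2, Myh11, Cnn1 and Mylk in MXD at 2W lie below every VC channel of that week. Tagln and Smtn lie above every VC channel of that week, while Acta2 and Actg2 overlap VC. How many of all genes lie outside VC in this way was not counted.

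Of 20 other genes of the smooth muscle contractile apparatus, 5 were down- and 2 up-regulated in MXD at 2W, beside the 11% and 6.8% of all genes, with a median of -0.29 ± 0.12. The largest changes were those of Pdlim3, a Z-disc protein of the ALP family, with -1.86 and -1.34, and Tpm1, a tropomyosin, with -1.19 and -1.58. Ppp1r12b, a myosin phosphatase targeting subunit, gave -0.91 and -1.42. The other down-regulated genes were Tpm2, a tropomyosin, with a mean of -0.90 ± 0.09 and Pgm5 with -0.93 ± 0.10. The up-regulated genes were Pdlim7 with 1.19 and 0.58 and Cald1, caldesmon, with 0.71 and 0.60. These 4 lay outside the 3 largest changes and were named after their values were seen. At 1W 1 of the 20 was down-regulated, beside 1.36% of all genes, Tpm2 with -0.65 and -0.59, and at 3W and in N-CE 0 were called. Whether smooth or skeletal muscle of the skin gave these values was not tested.

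Of 23 regulators and signalling genes of smooth muscle contraction, 17 were measured in MXD at 2W and 2 of these were down-regulated, a share near the 11% of all genes and so no result about this list. Prkg1, the cGMP-dependent kinase that relaxes smooth muscle, gave -1.16 and -1.05, and Itpr1, the IP3 receptor of the calcium store, gave -0.66 and -0.73. The median was -0.26 ± 0.11. In the other 5 comparisons 0 of 14 to 20 measured genes were called. Myocd, myocardin, the coactivator that drives many contractile genes, was not measured in MXD at 2W or 3W or in N-CE at 2W or 3W.

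Markers of other cell types were also among the down-regulated genes in MXD at 2W. Of 14 skeletal muscle markers, all 14 were measured and down-regulated, beside 11% of all genes, with a median of -1.46 ± 0.23, led by Ttn with -1.44 and -2.16, Myh1 with -1.40 and -1.70 and Tnnc2 with -1.53 and -1.54. Their summed level, over the 13 with an unmarked spot on every array, was 16.9 to 17.4 on the log2 scale in the 2W pool of MXD and 18.3 to 18.6 in its VC pool. The same sums were 17.74 to 17.96 against 18.3 to 18.6 for 1W, and 17.6 to 17.8 against 18.1 to 18.2 for 3W. At 1W 8 of 13 measured were down-regulated and 1, Myh2 (named after its value was seen), up-regulated, beside 1.36% and 1.34% of all genes, with a median of -0.73. At 3W 4 of 14 were down-regulated, beside 0.305%, with a median of -0.44. Skin of the mouse back carries a sheet of skeletal muscle beneath it, the panniculus carnosus, and Des and Synpo2 are expressed there too. The part of this muscle in the values of Des and Synpo2, or of Pdlim3, Tpm1 and Tpm2 above, was not tested.

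In the 2W pool of MXD 4 of 7 pericyte markers were down-regulated, beside 11% of all genes, with a median of -0.71 ± 0.20. Kcnj8 gave -1.66 and -1.49 and Abcc9 -1.17 and -1.27, both subunits of the ATP-sensitive potassium channel of vessels, and Higd1b gave -0.90 and -1.01. The mean folds of 2 of the 7 lay above 0, the highest at 0.28, and neither was called. Their summed level was 13.2 to 13.3 in MXD and 13.2 to 13.6 in VC, so the groups overlapped. Of the endothelial markers 4 of 9 were down-regulated, beside the same 11%, with a median of -0.46 ± 0.15, and their summed level was 12.78 to 12.80 in MXD against 13.19 to 13.45 in VC. Cldn5, a tight junction protein of endothelium, gave -1.08 and -0.78. Of the fibroblast markers 3 of 8 were down-regulated, again beside 11%, with a median of -0.70 ± 0.10, and the summed level of 6 of them was 16.3 to 16.4 against 16.9 to 17.1. Lum, the matrix proteoglycan lumican, gave -1.22 and -1.05. The part of these cells in the result was not tested, and in whole skin fewer cells of a type and less RNA per cell cannot be told apart.

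**Figure D4:**
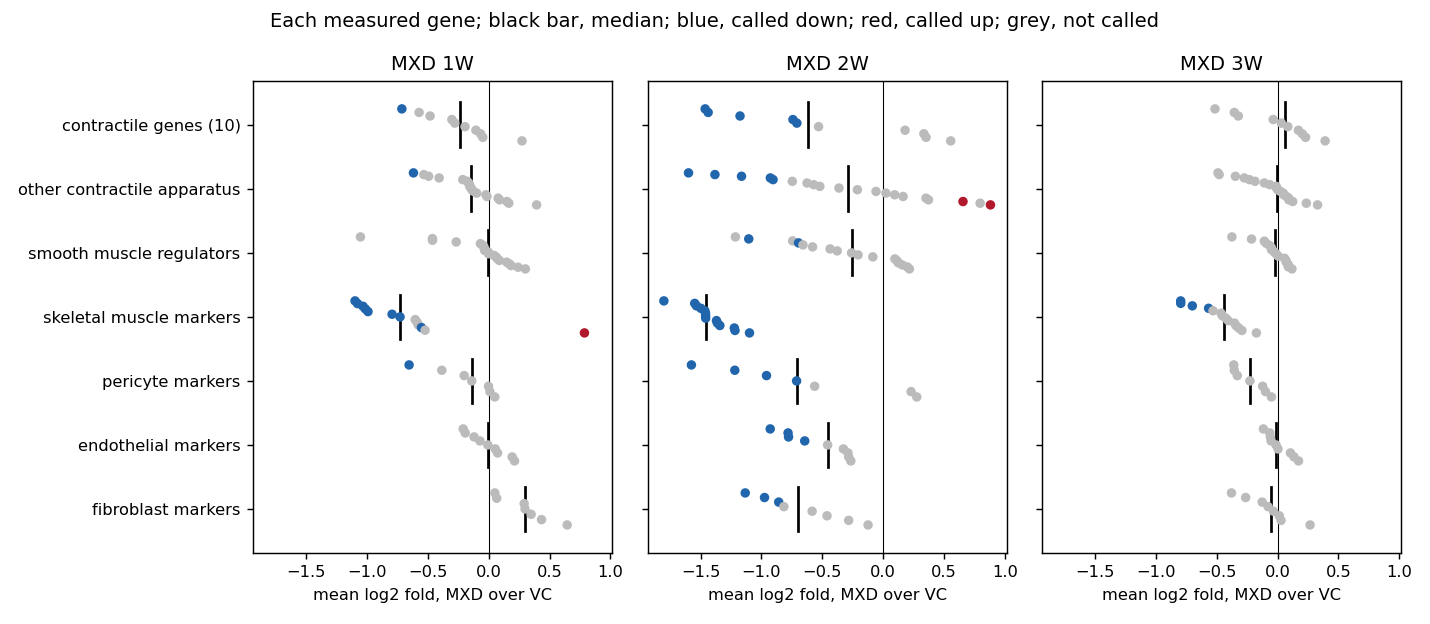
Mean log2 fold of MXD over VC (horizontal axis) of each measured gene of the 10 contractile genes and of 6 further lists at 1W, 2W and 3W. Black bars are medians, blue points are down-regulated, red points up-regulated and grey points not called. At 2W the 10 contractile genes spread from -1.46 to 0.55, while all 14 skeletal muscle markers lie between -1.80 and -1.10.

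The contractile genes most like Myh11 over the 6 comparisons were Cnn1 with r = 0.961, Synpo2 with 0.932, Mylk with 0.923, Des with 0.900 and Lmod1 with 0.897. Tagln, Actg2 and Smtn had -0.317, -0.618 and -0.816. For Acta2 the sign turned with the probe: r was -0.126 on the brightest probe, A_52_P420504, but 0.884 on A_51_P450957, 0.936 on A_52_P210078 and 0.905 on A_52_P239556. The ranking held 8876 genes, those of the lists included, with both groups above background in all comparisons and a sufficient range. Outside the lists, the 5 most like Myh11 were 5730409E04Rik, Ntf3, Pvalb, Cyp4b1 and Gdf1, with r between 0.996 and 0.999. All 5 had their lowest value in MXD at 2W, for example -1.36 for Ntf3, a neurotrophin, and -1.57 for Pvalb, the calcium buffer parvalbumin. These r describe 6 points that share VC pools within a week, and the fold of MXD at 2W sets much of each. Likeness to Myh11 does not place a gene in smooth muscle, and the part of skeletal muscle in these values was not tested.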

How the data were processed

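Back skin RNA of 9 pools of 6 mice was measured on 12 Agilent 2-colour arrays. The authors deposited Feature Extraction output, per the file headers version 12.0.3.1 and 11.0.1.1 in the submitters' processing notes. The deposited log10 ratio is Cy5 over Cy3 after the authors' LOWESS dye normalization, the deposited p-value is that of the software's error model for a spot, and the deposited signal intensity is given per channel. The series matrix of the authors equals the log10 ratio of processed intensities at all 43379 spots within 1e-05. Probe positions are on mm9. Spots marked as outliers (143 to 355 per array) were left out, and saturated spots numbered 0.

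Ratios were converted to log2 of treated over VC and averaged over copies and the dye swap. The brightest probe over all arrays stood for a gene. Levels used normexp (offset 50), loess and Aquantile. limma 3.58.1 in R 4.3.3 with Benjamini-Hochberg adjustment was fitted to weekly log2 folds of all probes; no test within a week is possible with 1 pool per group. Python 3.11.15, numpy 2.4.6 and pandas 2.3.3 were used. The call rule and limma fit were run on simulated data with independent noise, as a check of the code and not of the precision here. Named were all 10 genes with every probe, up to 3 called genes per other list and comparison with the largest fold, and the 5 genes most like Myh11. The genes and lists were chosen with earlier results of these data known. Alternatives covered the normalization, the matrix values, P and fold thresholds, outlier spots, single arrays, the probe of a gene, dim probes, weeks left out and the slide as a random block.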

Additional observations from a re-analysis of the deposited data

Results flagged for a closer look

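Myh11 and Cnn1 were down-regulated in MXD at 2W and were not called at 3W. At 3W Myh11 gave 0.01 and 0.05, close to 0, and Cnn1 0.35 and 0.11. The difference of their mean log2 folds, 2W minus 3W, was -0.77 for Myh11 and -0.94 for Cnn1. Both VC and MXD levels changed between these weeks. In log2 signal intensity, VC went from 9.39 at 2W to 8.97 at 3W for Myh11 and from 10.65 to 9.98 for Cnn1. MXD went from 8.79 to 9.08 for Myh11 and from 9.94 to 10.24 for Cnn1. The difference between weeks was not tested, since each week is 1 pool on its own slide.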

How the results depend on the processing

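The count of 5 down-regulated genes in MXD at 2W was 5 or 6 under all alternatives run, 5 with normexp and loess, with the matrix values, with symmetric folds and with outlier spots kept. Without a P threshold, 3 genes were down-regulated in MXD at 1W, 1 at 3W and 2 in N-CE at 2W, in place of 1, 0 and 0. On single arrays of the dye swap, the down-regulated genes numbered 2 and 2 in MXD at 1W and 1 to 2 in N-CE at 2W, and the up-regulated genes in MXD at 2W 0 to 2. The medians on single arrays were -0.63 to -0.57 in MXD at 2W and 0.0147 to 0.0825 in N-CE at 1W. With the mean over all measured probes of a gene, the median in N-CE at 1W was 0.0845. With Acta2 represented by its second brightest probe, an alternative chosen after seeing the data, 2 genes were down-regulated in MXD at 1W and 6 at 2W, where the median became -0.73. limma with the 12 arrays as values and the slide as a random block called 1 of the 20 probes for MXD, Synpo2 A_51_P119776, at an adjusted p of 0.0294, and 494 probes in all; that fit counts the 2 arrays of a dye swap as separate. Every other limma alternative called 0 of these probes, leaving out 1W, 2W or 3W included. No analysis paired by replicate number was possible because the labels give each group 1 replicate, whereas MXD minus N-CE was fitted on differences within weeks. Each group is 1 pool, which limits every value.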

Other observations

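In N-CE, 14 of 14 skeletal muscle markers lay below 0 at 2W and 14 of 14 at 3W, with medians of -0.44 ± 0.26 and -0.35 ± 0.05. Of these, 1 was down-regulated at each week, Myh1 with -0.67 ± 0.11 at 2W and Myh2 with -0.60 ± 0.07 at 3W, beside 0.0814% of all genes at 2W and 0.241% at 3W. At 1W the median was -0.12 ± 0.13 and 0 of 13 were called.

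Endothelial markers lay above 0 for 8 of 9 genes in N-CE at 1W, with a median of 0.28 ± 0.12 and 0 called. Fibroblast markers lay above 0 for 7 of 7 measured genes in MXD at 1W, with a median of 0.30 ± 0.04 and 0 called.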
